A study of Mus musculus with 57 samples.

Results

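Somites are blocks of paraxial mesoderm that bud off in pairs beside the neural tube, and the change of their transcriptome between E10.5 and E12.5 (embryonic days, E) was described in wild-type (wt) mouse embryos. Bulk RNA-seq libraries were used, 4 of each stage, which are 8 of the 57 samples of the series. The genes described are all genes other than *Hox* genes with a mean of at least 1 TPM (a level per length of gene, scaled to the same total in each library) in either stage, and 19743 of the 56860 genes listed met this rule. The rule uses levels and asks for no difference between the stages. A gene low in 1 stage could pass it through the stage where it was high.

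The tissue was the trunk segment from the level of C3 to that of T2, from which the neural tube, the forelimbs and the thoracic organs had been removed by dissection. All embryos were of the 129/Sv background. The wt embryos of both stages carried no engineered allele and received no treatment. Beside them, 3 libraries of E10.5 and 4 of E12.5 from *Hoxa5*-/- embryos were used only to give the stage change in a second set of libraries. These mutants carry an insertion in the *Hoxa5* homeobox, in every cell of the embryo. The libraries are described as biological replicates, and the wt somites as taken from as many embryos as there were wt libraries, so that p-values measure the spread between these embryos. No label gives a batch within the somite libraries, which were all sequenced as paired reads of 150 bases.

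Each somite parts into compartments. The sclerotome gives the vertebrae and ribs, the syndetome between muscle and cartilage gives tendon, and the dermomyotome gives dermis, brown fat and the muscle of the trunk. Muscle begins with the myogenic factors MYF5, MYOD1, MYOG and MYF6, and cartilage with SOX9, which drives the genes of the cartilage matrix. At E10.5 the cervical and upper thoracic somites of the mouse have formed and are parted into these compartments, and by E12.5 the first muscle masses and the cartilage models of the vertebrae are present.

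The libraries held 23364458 to 28234711 counts on genes. Stage was the main axis: the first principal component carried 75.7% of the variance of the 8 libraries and separated the stages, with 5.21% on the second. The E10.5 library that stood nearest to E12.5 was replicate 3, at -91.8 on this component, while the other E10.5 libraries lay at -97.8 to -105.5. For 6 genes this library stood with the 3 E10.5 mutant libraries, at least 3-fold away from the other wt libraries of its stage, and no gene did so for the other replicates. An example is the mitochondrial gene *mt-Nd3*, at 37.9 TPM in this library, 2.89 to 5.06 TPM in the other E10.5 wt libraries and 30.1 to 45.2 TPM in the E10.5 mutants. Smaller differences of this kind were not confined to these genes. Genes listed for the Wnt pathway summed to 801 TPM in this library. They summed to 539 to 644 TPM in the other E10.5 wt libraries and 790 to 794 TPM in the E10.5 mutants. For the dermomyotome list the sums were 611, 404 to 486 and 607 to 658 TPM. The cell cycle list did not set this library apart, with 7050 TPM in it and in replicate 2. The targeted gene *Hoxa5*, which still gives reads from the mutant allele, went from 186 ± 33.7 to 103 ± 8.83 TPM in wt and from 102 ± 14.4 to 33.7 ± 6.72 TPM in mutants (mean ± SD). The sex of the embryos, read from *Xist* and Y-linked genes, was uneven: 3 of the 4 E10.5 libraries were female and 3 of the 4 E12.5 libraries were male.

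The labels were checked against markers. The somite genes *Meox1*, *Tcf15*, *Pax1*, *Pax9*, *Pax7*, *Myf5* and *Myog* were all found in every library. Markers of the neural tube, which the dissection was to remove, were found at E10.5, and the source of their reads was not tested. Of the 24 neural tube markers, 22 fell (91.7%) and none rose, against 18.4% and 24.1% of all genes tested. Their median log2 fold change was -5.01. Their summed level was 470 to 765 TPM in the E10.5 libraries and 85.3 to 107 TPM in those of E12.5. *Sox1*, a factor of neural progenitors, stood at 12.8, 17.1, 19.9 and 12.4 TPM at E10.5 and 0.137, 0.0550, 0 and 0.0283 TPM at E12.5. *Olig2*, which marks motor neuron progenitors, stood at 8.70, 18.7, 11.5 and 7.29 TPM at E10.5 and 0, 0, 0.112 and 0.0540 TPM at E12.5, with 3 counts in all at E12.5 and a level 314-fold lower there (95% counting interval 107 to 1530). The largest part of the E12.5 sum was *Irx3*, at a mean of 48.4 TPM, followed by *Isl2* and *Sox2*, at 13.0 and 12.1 TPM. Of the 6 Iroquois genes, *Irx3* among them, 4 rose and none fell. Whether the *Irx3* reads of E12.5 came from neural tube cells was not tested. The neural tube also transcribes a number of the genes described below, and its part in their falls was not tested. In bulk samples, fewer cells of a type and less RNA per cell cannot be told apart.

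Between E10.5 and E12.5, 4763 genes rose and 3629 fell. These calls needed an adjusted p under 0.05 and a difference of at least 1.5-fold. Together these 8392 genes were 42.5% of the 19743 tested; 24.1% rose and 18.4% fell. Counted without any test, the TPM values of the stages did not overlap for 11085 genes, which was 56.1%. The median log2 fold change of all genes was -0.039. Large changes were more often rises: 1608 genes rose and 653 fell at least 4-fold, and 89 rose and 52 fell at least 64-fold. Among protein-coding genes 4191 of 14451 rose and 2339 fell, whereas among lncRNAs 409 of 2293 rose and 625 fell. Processed pseudogenes, whose reads may come from their parent genes, rose in 43 and fell in 248 of 1230 cases. Without replicate 3 of E10.5 there were 4882 rises and 3837 falls, and 4625 of the rises and 3417 of the falls were the same genes as with all 8 libraries.

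**Figure D1:**
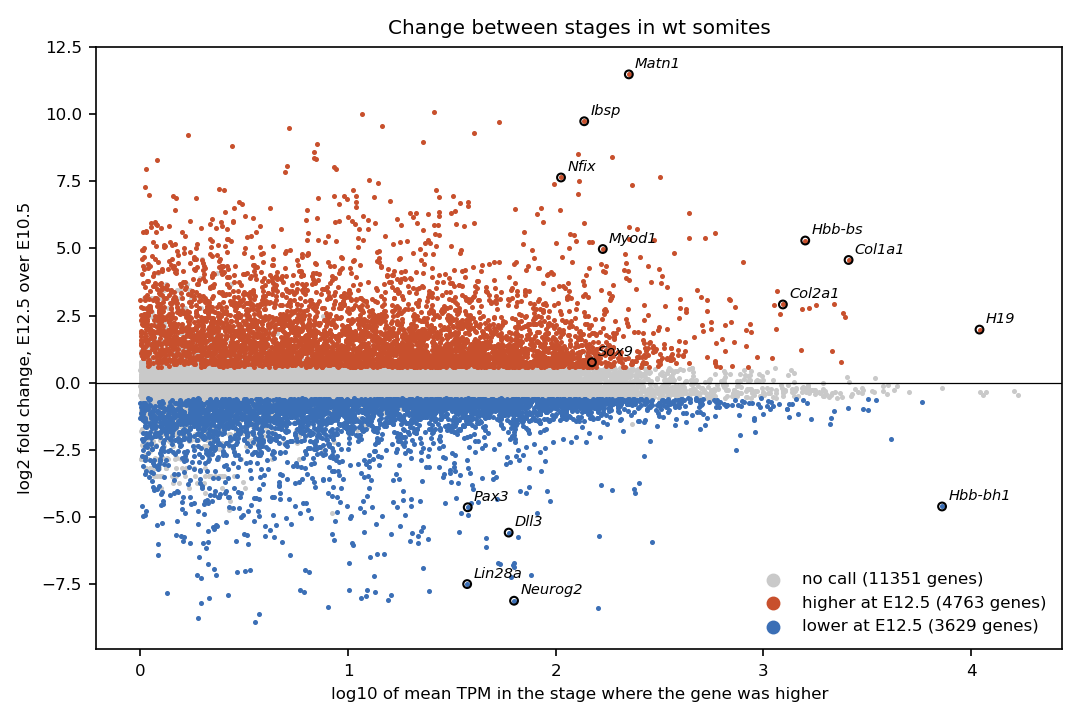
Each point is 1 of the 19743 genes. The x axis gives log10 of the mean TPM in the stage where the gene was higher and the y axis the log2 fold change of E12.5 over E10.5. Genes that rose (4763) are orange, genes that fell (3629) are blue and the others are grey. The circled genes are described in the text and run from *Neurog2*, at -8.12, to *Matn1*, at 11.49.

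Genes of skeletal muscle rose together. MYOD1 commits cells to muscle, MYOG starts their differentiation, and *Mymk* and *Mymx* encode the membrane proteins with which myoblasts fuse. Of the 23 genes listed as regulators of muscle formation and fusion, 17 rose and 2 fell, against 24.1% and 18.4% of all genes. *Myod1* was at 1.62, 2.16, 11.6 and 5.63 TPM at E10.5 and 168, 191, 176 and 139.8 TPM at E12.5 (log2 fold change 4.98 ± 0.37 (SE), adjusted p = 6.81e-08). *Myog* was at 33.98, 41.3, 73.3 and 59.7 TPM at E10.5 and 511, 562, 478 and 445 TPM at E12.5 (log2 fold change 3.21 ± 0.17 (SE), adjusted p = 2.55e-09). For both genes every E12.5 library stood above every E10.5 library, by a wide margin. Among the E10.5 libraries, replicate 3 was the highest in both.

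*Mymx*, which encodes myomixer, was at 3.92, 3.43, 2.65 and 4.89 TPM at E10.5 and 71.7, 86.5, 72.2 and 57.7 TPM at E12.5 (log2 fold change 4.20 ± 0.19 (SE), adjusted p = 6.51e-10). Its partner *Mymk* moved in the same direction, from a mean of 5.17 to 94.4 TPM. *Nfix*, a factor of the nuclear factor I family that is known for the switch from embryonic to fetal muscle, was at 0.393, 0.359, 0.685 and 0.602 TPM at E10.5 and 93.2, 109.8, 108 and 113 TPM at E12.5 (log2 fold change 7.65 ± 0.15 (SE), adjusted p = 1.77e-12). This was the largest change of the list, and all 4 nuclear factor I genes rose, by 2.90 to 7.65 on the log2 scale. *Myf5*, the earliest factor of the group in the somite, was at 21.3, 14.4, 19.99 and 18.1 TPM at E10.5 and 29.7, 28.6, 24.1 and 21.04 TPM at E12.5. Its log2 fold change of 0.42 ± 0.14 (SE) stayed under the fold limit, with an adjusted p of 0.0219. The 2 genes that fell were *Myf6*, from 12.2 to 3.89 TPM, and *Tcf21*, from 3.35 to 1.67 TPM. *Myf6* is known for an early wave of expression in the myotome and a later one in fetal muscle.

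The contractile apparatus followed as a block. All 49 tested genes of the sarcomere, of calcium release and of the motor endplate rose, with log2 fold changes of 1.17 to 6.35 and a median of 2.91. *Tnnc2* of this list did not reach 1 TPM in either stage and was not tested. The summed level of the 50 genes was 949 to 1490 TPM at E10.5 and 7940 to 11300 TPM at E12.5.

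Cardiac alpha-actin *Actc1*, the main actin of early skeletal muscle, was at 269.5, 214, 349 and 286 TPM at E10.5 and 2187, 2513, 2229 and 1858 TPM at E12.5 (log2 fold change 2.91 ± 0.13 (SE), adjusted p = 6.25e-10). It was among the 5 genes with the largest gain of TPM. The embryonic myosin heavy chain *Myh3* was at 59.996, 46.7, 111 and 82.7 TPM at E10.5 and 732, 792, 644 and 561 TPM at E12.5 (log2 fold change 3.13 ± 0.21 (SE), adjusted p = 1.91e-08). The perinatal myosin *Myh8* stood at 0.972, 0.555, 2.08 and 1.74 TPM at E10.5 and 95.2, 110.2, 76.4 and 66.4 TPM at E12.5 (log2 fold change 5.98 ± 0.29 (SE), adjusted p = 1.09e-09). *Cav3*, a scaffold protein of the muscle membrane, was at 0.761, 0.652, 0.706 and 0.255 TPM at E10.5 and 46.2, 53.6, 35.3 and 26.3 TPM at E12.5 (log2 fold change 5.96 ± 0.31 (SE), adjusted p = 2.17e-09). *Hspb3*, a small heat shock protein of muscle, had 7 counts in all at E10.5 and was at 0.161, 0.322, 0 and 0.756 TPM at E10.5 and 30.3, 30.9, 23.4 and 25.2 TPM at E12.5. The stages did not overlap for any of the 49 genes, against 56.1% of all genes without overlap.

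**Figure D2:**
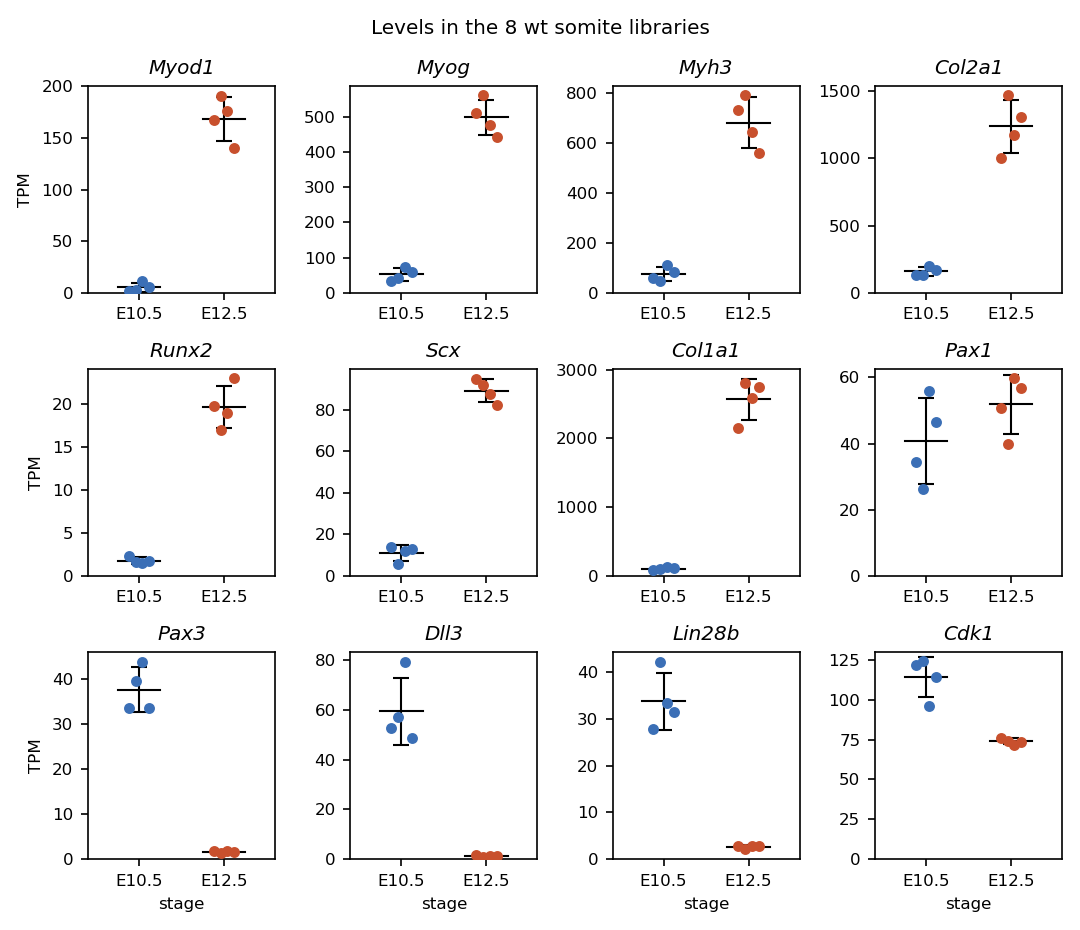
TPM of 12 genes in the 8 wt libraries, on linear axes that start at 0. Each point is 1 library, the horizontal line is the mean and the bar is the SD (n = 4). The stages overlap for *Pax1* and for none of the other 11 genes.

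The 250 bases before the start of each gene were read from GRCm39 for the genes of this block, since the motifs that muscle factors bind are well known. The E-box CAGCTG, which MYOD1 and MYOG bind, was looked for on both strands, as were TATAAA and the binding motifs of MEF2 and of serum response factor (the CArG box). CAGCTG was found before 21 of the 49 sarcomere genes (42.9%), and before 2646 of 21782 protein-coding genes (12.1%). TATAAA was found before 11 of the 49 (22.4% against 11.6%), a CArG box before 5 (10.2% against 1.32%) and a MEF2 motif before 3 (6.12% against 0.491%). Among genes that rose, TATAAA was also found before 26.7% of the tendon genes, and before 9.38% of the cartilage and 10.3% of the connective tissue genes. Of the 17 regulators that rose, 4 had CAGCTG (23.5%) and none had a CArG box or a MEF2 motif in this window. These are matches of letters and not measured binding. The 3 promoters below were chosen after the matches were seen, to show the motifs in their places. They belong to *Acta1*, skeletal alpha-actin, at chr8:124621491-124621740 on the minus strand, to *Mybpc1*, slow myosin-binding protein C, at chr10:88440888-88441137 on the minus strand, and to *Klhl41*, a kelch protein of the sarcomere, at chr2:69500214-69500463 on the plus strand. Capitals mark these motifs, and each run ends at the base before the start of the transcript.
Acta1: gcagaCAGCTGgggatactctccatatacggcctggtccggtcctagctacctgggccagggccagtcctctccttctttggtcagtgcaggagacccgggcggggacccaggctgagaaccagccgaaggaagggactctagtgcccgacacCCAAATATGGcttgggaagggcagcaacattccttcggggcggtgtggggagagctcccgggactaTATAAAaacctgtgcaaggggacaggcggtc
Mybpc1: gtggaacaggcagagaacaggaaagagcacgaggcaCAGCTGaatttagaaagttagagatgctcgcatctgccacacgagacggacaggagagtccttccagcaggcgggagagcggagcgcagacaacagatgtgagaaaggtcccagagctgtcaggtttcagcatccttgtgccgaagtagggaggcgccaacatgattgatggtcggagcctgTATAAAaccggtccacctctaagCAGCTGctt
Klhl41: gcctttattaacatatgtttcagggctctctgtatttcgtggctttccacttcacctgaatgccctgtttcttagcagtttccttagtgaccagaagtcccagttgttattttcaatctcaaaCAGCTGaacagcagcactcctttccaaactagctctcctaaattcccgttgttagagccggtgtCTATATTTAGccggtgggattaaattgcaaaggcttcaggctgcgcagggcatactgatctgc

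In the *Acta1* promoter CAGCTG ended 240 bases, the CArG box 88 bases and TATAAA 26 bases before the start. In that of *Mybpc1*, 1 CAGCTG lay 209 bases and another 4 bases before it, with TATAAA at 27 bases. In that of *Klhl41* the MEF2 motif ended 54 bases before the start and CAGCTG 122 bases before it. The mean level of these genes went from 34.7 to 799 TPM for *Acta1*, from 16.95 to 87.6 TPM for *Mybpc1* and from 15.6 to 126 TPM for *Klhl41*.

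Cartilage genes rose nearly without exception. Of 33 genes listed, 32 rose and 1 fell, with a median log2 fold change of 3.39. *Sox9* was already high and was at 73.99, 65.2, 113 and 87.3 TPM at E10.5 and 133, 145, 147 and 171 TPM at E12.5 (log2 fold change 0.76 ± 0.12 (SE), adjusted p = 1.08e-04). Its rise was 1.7-fold, the second smallest of the list among those that rose, and it was not called when the test was made against a fold change of 1.5. Genes of the cartilage matrix that SOX9 is known to activate had larger rises. *Col2a1*, the collagen of cartilage, was at 134, 129, 198 and 172 TPM at E10.5 and 1006, 1472, 1175 and 1309 TPM at E12.5 (log2 fold change 2.91 ± 0.15 (SE), adjusted p = 2.23e-09). The aggregating proteoglycan *Acan* went from a mean of 0.696 to 129 TPM, and the 3 chains of collagen IX from 60.7 to 426 TPM, from 12.2 to 523 TPM and from 5.22 to 438 TPM.

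The largest change of all genes named here was that of *Matn1*, which encodes cartilage matrix protein. It had 4 counts in all at E10.5 and was at 0.0628, 0.0628, 0.0680 and 0.0738 TPM at E10.5 and 207, 301, 194 and 197 TPM at E12.5 (log2 fold change 11.49 ± 0.28 (SE), adjusted p = 3.70e-12). This SE is derived from the test statistic and is too small for so few counts, as for other genes nearly without counts in a stage. *Matn4*, of the same family, was at 0.365, 0.510, 0.421 and 0.827 TPM at E10.5 and 164, 215, 177 and 193 TPM at E12.5 (log2 fold change 8.41 ± 0.18 (SE), adjusted p = 1.77e-12). *Snorc*, a proteoglycan of chondrocytes, had no count in any E10.5 library and was at 23.3, 38.6, 24.7 and 16.8 TPM at E12.5. Against a floor of 3 counts per E10.5 library it was at least 43.2-fold higher. The gene of the list that fell was *Fgfr3*, from 57.4 to 30.2 TPM, which the neural tube also transcribes.

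Bone genes were mostly on the rise from low levels, with 12 of 14 genes higher and 2 lower. These are 85.7% and 14.3%, against 24.1% and 18.4% of all genes. RUNX2 and SP7 are the factors that make osteoblasts. *Runx2* was at 2.33, 1.58, 1.45 and 1.74 TPM at E10.5 and 19.8, 17.04, 19.04 and 23.02 TPM at E12.5 (log2 fold change 3.39 ± 0.16 (SE), adjusted p = 1.00e-09). *Sp7* was at 0.925, 0.555, 1.08 and 1.43 TPM at E10.5 and 18.4, 20.8, 17.95 and 15.1 TPM at E12.5 (log2 fold change 4.12 ± 0.21 (SE), adjusted p = 1.43e-09). The groups of neither overlapped. *Ibsp*, bone sialoprotein, had 9 counts in all at E10.5 and was at 0.304, 0.182, 0 and 0.0714 TPM at E10.5 and 134, 144, 123 and 148 TPM at E12.5 (log2 fold change 9.74 ± 0.24 (SE), adjusted p = 4.35e-12). *Dlx6* had 4 counts at E10.5 and a mean of 12.6 TPM at E12.5. *Col10a1*, the collagen of hypertrophic cartilage, was at 0.0803, 0.0803, 0.0435 and 0.141 TPM at E10.5 and 2.88, 19.2, 0.588 and 2.40 TPM at E12.5 (log2 fold change 6.06 ± 1.15 (SE), adjusted p = 4.12e-04). Most of its mean came from 1 library, replicate 2 of E12.5, without which the log2 fold change was 4.36. The genes that fell were *Bglap*, which encodes osteocalcin, from 1.63 to 0.489 TPM, and *Msx2*, from 8.80 to 4.94 TPM, and the TPM values of the stages overlapped for both.

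Tendon genes rose in 15 of 16 cases (93.8%, against 24.1% of all genes), with a median log2 fold change of 3.55. *Scx*, the factor that marks tendon progenitors, was at 13.7, 5.57, 12.1 and 12.7 TPM at E10.5 and 94.97, 91.7, 87.7 and 82.3 TPM at E12.5 (log2 fold change 2.95 ± 0.20 (SE), adjusted p = 2.42e-08). *Tnmd*, tenomodulin, a membrane protein of mature tenocytes, had 2 counts in all at E10.5 and was at 0.0929, 0, 0 and 0.109 TPM at E10.5 and 37.7, 44.7, 38.3 and 41.1 TPM at E12.5. The ratio of its counts was 762 (95% counting interval 211 to 6300). *Kera*, keratocan, had 4 counts at E10.5 and was at 0.165, 0, 0.0597 and 0 TPM at E10.5 and 13.4, 7.28, 5.96 and 7.79 TPM at E12.5 (log2 fold change 6.96 ± 0.50 (SE), adjusted p = 4.23e-08). *Thbs4*, a thrombospondin of the tendon matrix, went from 0.931 to 127 TPM. *Fgf4*, the exception, was at a mean of 1.83 to 1.97 TPM.

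Genes of connective tissue and dermis rose in 29 of 32 cases and 1 fell. *Col1a1*, the main collagen of skin, tendon and bone, was at 83.9, 94.1, 129 and 108 TPM at E10.5 and 2147, 2803, 2582 and 2747 TPM at E12.5 (log2 fold change 4.57 ± 0.15 (SE), adjusted p = 3.12e-11). After *H19* it had the largest gain of TPM of all genes. *Ogn*, osteoglycin, was at 2.21, 1.18, 1.48 and 1.09 TPM at E10.5 and 309, 349, 297 and 315 TPM at E12.5 (log2 fold change 7.65 ± 0.16 (SE), adjusted p = 1.77e-12). *Twist2*, a factor of the dermis, was at 6.77, 5.07, 7.202 and 5.77 TPM at E10.5 and 23.1, 21.3, 23.01 and 21.04 TPM at E12.5 (log2 fold change 1.76 ± 0.12 (SE), adjusted p = 2.74e-08). *Col6a3* and *Lox*, the enzyme that crosslinks collagen, went from 3.86 to 225 TPM and from 4.55 to 247 TPM. The gene that fell was the retinoic acid binding protein *Crabp1*, from 1299 to 692 TPM.

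Matrix families gave the same picture beyond these lists. Of 40 collagen genes tested, 35 rose and none fell; the 5 without a call were *Col4a5*, *Col4a6*, *Col5a3*, *Col18a1* and *Col28a1*. All 12 small leucine-rich proteoglycans rose, by 2.22 to 8.52 on the log2 scale, with *Aspn*, asporin, going from 0.324 ± 0.0712 to 128 ± 19.97 TPM (SD, n = 4). Integrins rose in 20 of 27 cases and fell in 3, and laminins rose in 8 of 11 and fell in 2, *Lama1* and *Lamc3*.

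Of 13 genes tested that mark precursors of brown fat, a tissue to which the dermomyotome of this trunk level contributes, 11 rose and 1 fell. These are 84.6% and 7.69%, against 24.1% and 18.4% of all genes. *Ebf2*, which marks committed brown fat precursors, was at 31.2, 21.8, 29.4 and 32.3 TPM at E10.5 and 53.9, 57.3, 61.4 and 61.1 TPM at E12.5 (log2 fold change 0.96 ± 0.11 (SE), adjusted p = 3.81e-06). *Pparg*, the master factor of fat cells, was at 0.0852, 0.170, 0.0922 and 0.04999 TPM at E10.5 and 3.14, 3.60, 2.83 and 3.10 TPM at E12.5 (log2 fold change 4.82 ± 0.31 (SE), adjusted p = 1.76e-08), on 9 counts in all at E10.5. *Cebpa* went from 1.598 to 17.5 TPM and *Cebpb* from 2.75 to 10.1 TPM. The genes of mature fat *Ucp1*, *Adipoq* and *Plin1* stayed under 1 TPM in both stages and were not tested. *Cidea*, which coats lipid droplets, was the gene that fell, from 3.89 to 1.55 TPM.

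The early programme of the paraxial mesoderm showed a mixed pattern. New somites form at the tail end, outside the segments sampled, and several genes of that process were near 0: *Msgn1*, *Mesp1*, *Mesp2*, *Ripply2*, *Hes7*, *Cdx2* and *Cdx4* did not reach 1 TPM in either stage. Of the 12 segmentation genes tested, 7 fell (58.3%) and 2 rose (16.7%), against 18.4% and 24.1% of all genes. *Tbx6*, which specifies paraxial mesoderm, was at 1.46, 2.37, 1.21 and 2.37 TPM at E10.5 and 1.76, 1.69, 1.57 and 1.14 TPM at E12.5, without a call (log2 fold change -0.34 ± 0.30 (SE), adjusted p = 0.34). *Dll1* and *Dll3* encode Notch ligands. *Dll1* was at 60.4, 59.1, 79.5 and 64.5 TPM at E10.5 and 11.6, 13.3, 12.9 and 10.3 TPM at E12.5 (log2 fold change -2.51 ± 0.10 (SE), adjusted p = 2.56e-10). *Dll3* was at 52.7, 56.9, 79.1 and 48.7 TPM at E10.5 and 1.63, 1.02, 1.24 and 1.25 TPM at E12.5 (log2 fold change -5.59 ± 0.18 (SE), adjusted p = 2.47e-11). Both are also made by newborn neurons of the spinal cord. *Ripply1*, a repressor that ends segmentation, was one of the genes that rose, at 0.155, 1.24, 0 and 0.364 TPM at E10.5 and 5.88, 7.86, 4.71 and 2.36 TPM at E12.5 (log2 fold change 3.40 ± 0.61 (SE), adjusted p = 2.77e-04).

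Among 15 genes of early somite identity, 6 fell and 3 rose. *Meox1*, which is needed for the sclerotome, was at 125, 152, 163 and 148 TPM at E10.5 and 80.9, 95.6, 91.1 and 87.3 TPM at E12.5 (log2 fold change -0.79 ± 0.08 (SE), adjusted p = 2.05e-06). *Tcf15*, a factor that keeps the young somite epithelial, was at 62.6, 80.02, 112 and 82.1 TPM at E10.5 and 27.4, 34.5, 35.2 and 27.4 TPM at E12.5 (log2 fold change -1.49 ± 0.15 (SE), adjusted p = 1.32e-06). *Uncx*, which marks the caudal part of each segment, was at 25.98, 20.7, 39.2 and 28.9 TPM at E10.5 and 5.07, 4.996, 6.54 and 6.62 TPM at E12.5 (log2 fold change -2.36 ± 0.17 (SE), adjusted p = 4.40e-08). *Tbx18*, which marks the rostral part, moved the other way and was at 6.10, 9.88, 8.19 and 7.85 TPM at E10.5 and 29.99, 23.1, 27.6 and 26.3 TPM at E12.5 (log2 fold change 1.67 ± 0.13 (SE), adjusted p = 1.35e-07). *Snai2*, a repressor of epithelial genes, was at 19.97, 21.5, 30.4 and 25.3 TPM at E10.5 and 92.4, 89.9, 87.4 and 98.5 TPM at E12.5 (log2 fold change 1.86 ± 0.10 (SE), adjusted p = 3.74e-09).

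Lists of the compartments themselves gave shares near those of all genes. The sclerotome list had 4 rises and 4 falls among 15 genes (26.7% each, against 24.1% and 18.4% of all genes), and its markers *Pax1* and *Pax9* gave no call. *Pax1* was at 34.4, 26.3, 55.8 and 46.6 TPM at E10.5 and 50.7, 39.7, 59.95 and 56.9 TPM at E12.5 (log2 fold change 0.29 ± 0.17 (SE), adjusted p = 0.157). *Pax9* was at 9.23, 7.63, 14.4 and 12.2 TPM at E10.5 and 11.99, 11.6, 12.51 and 13.8 TPM at E12.5 (log2 fold change 0.14 ± 0.15 (SE), adjusted p = 0.408). For both genes the stages overlapped, and the highest E10.5 value was that of replicate 3. *Zic1* fell from 146 to 61.4 TPM. All 5 *Zic* genes fell, by 0.90 to 2.19 on the log2 scale, and the dorsal neural tube also transcribes them.

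The dermomyotome list had 4 rises and 3 falls among 15 genes, again near the shares of all genes. PAX3 and PAX7 keep muscle progenitors, PAX3 first and PAX7 later. *Pax3* was at 33.7, 39.5, 43.9 and 33.7 TPM at E10.5 and 1.84, 1.24, 1.72 and 1.52 TPM at E12.5 (log2 fold change -4.64 ± 0.13 (SE), adjusted p = 1.07e-11). *Pax7* was at 15.8, 16.04, 25.2 and 16.7 TPM at E10.5 and 16.2, 17.9, 18.6 and 16.6 TPM at E12.5 (log2 fold change -0.14 ± 0.12 (SE), adjusted p = 0.315). Thus *Pax3* fell 24.9-fold with no overlap of the stages, and *Pax7* gave no call. Both genes are also transcribed in the dorsal neural tube, the markers of which fell as well. *Wnt11* and *Fgfr4*, a receptor of muscle progenitors, rose from 4.81 to 42.9 TPM and from 5.78 to 64.9 TPM. Of the 8 *Pax* genes tested, 5 fell, and those 5 were *Pax2*, *Pax3*, *Pax5*, *Pax6* and *Pax8*, all of which the neural tube transcribes.

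**Figure D3:**
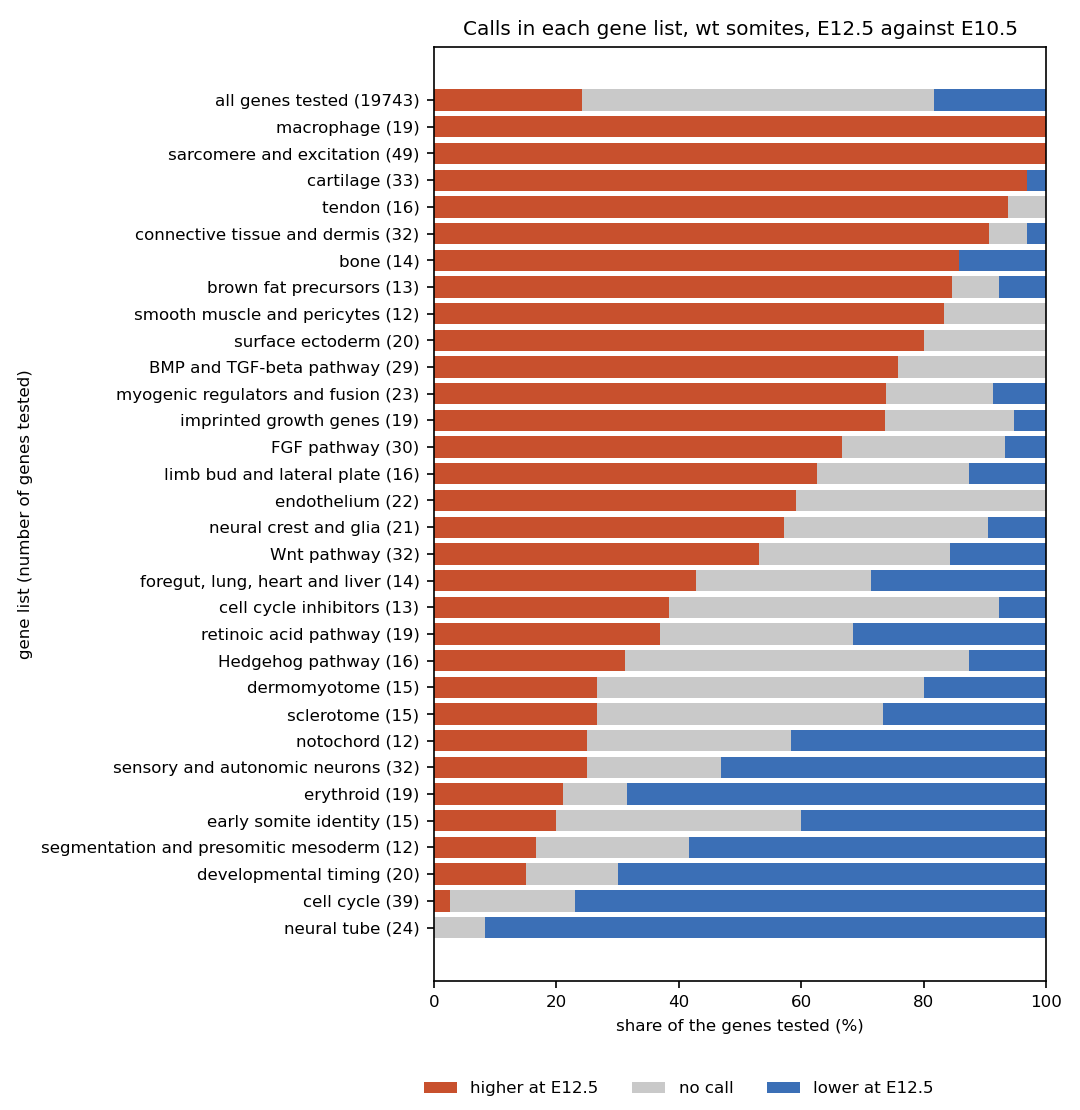
Share of the genes tested in each of the 31 lists, and among all 19743 genes, that rose (orange), had no call (grey) or fell (blue) between E10.5 and E12.5 in wt somites. The number in brackets is the number of genes tested. All of the sarcomere and macrophage genes rose, while 22 of 24 neural tube genes and 30 of 39 cell cycle genes fell.

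Genes of developmental timing fell with a few of the largest ratios. LIN28A and LIN28B are RNA-binding proteins that block the maturation of let-7 miRNAs in young embryos, and let-7 in turn represses them. Of 20 genes listed, 14 fell and 3 rose, and the 3 that rose were the nuclear factor I genes *Nfia*, *Nfib* and *Nfix*. *Lin28a* was at 28.2, 50.6, 42.8 and 28.3 TPM at E10.5 and 0.133, 0.266, 0.142 and 0.308 TPM at E12.5 (log2 fold change -7.50 ± 0.29 (SE), adjusted p = 1.55e-10). *Lin28b* was at 27.9, 42.3, 33.5 and 31.5 TPM at E10.5 and 2.82, 2.24, 2.73 and 2.86 TPM at E12.5 (log2 fold change -3.74 ± 0.14 (SE), adjusted p = 1.00e-10). *Sall4*, a pluripotency factor, was at 9.79, 16.004, 17.6 and 11.97 TPM at E10.5 and 0.0717, 0.120, 0.179 and 0.321 TPM at E12.5 (log2 fold change -6.37 ± 0.29 (SE), adjusted p = 6.65e-10). *Trim71*, a partner of this pathway, went from a mean of 20.1 to 0.876 TPM. In all these genes each E12.5 library was below every E10.5 library. *Hmga2*, *Igf2bp2* and *Igf2bp3* gave no call, with log2 fold changes of -0.38, -0.21 and -0.49. The neural tube also transcribes most of these genes at this age.

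The let-7 family was looked at in sequence only, since polyA libraries do not measure mature miRNAs. The 9 mature sequences of the family in RefSeq shared the seed GAGGUAG, bases 2 to 8, which is in capitals in the first line below. The site that pairs with it, CTACCTC, was found in the 3' untranslated region of 13 of the 20 timing genes and of 1294 of 14158 tested protein-coding genes (9.14%). Known let-7 targets had been put on the list, so that a high share is built into it. The lines after the first show 1 site each in *Lin28a* (chr4:133732500-133732529), *Lin28b* (chr10:45257118-45257147), *Trim71* (chr9:114341540-114341569) and *Hmga2* (chr10:120200129-120200158), all GRCm39 and minus strand, with the site in capitals.
mmu-let-7a-5p: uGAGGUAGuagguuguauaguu
Lin28a: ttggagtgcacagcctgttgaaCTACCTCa
Lin28b: tcccttcacccgggcgggaagtCTACCTCa
Trim71: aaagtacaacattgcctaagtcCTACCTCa
Hmga2: agggggcgccgacattcaatttCTACCTCa

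*Lin28b*, *Trim71* and *Hmga2* each held 4 such sites and *Lin28a* held 2. Of these genes *Lin28a* had the largest fall, *Lin28b* and *Trim71* fell more than 10-fold, and *Hmga2* gave no call. The changes of all genes were also set out by number of sites, and an effect of let-7 was not tested. The median log2 fold change was 0.07 for the 12864 genes without a site, 0.09 for the 1139 with 1 site and 0.05 for the 129 with 2. Of the 26 genes with at least 3 sites 8 fell, and 4 of these 8 were among the 5 genes of the timing list. Of the other 21 genes 4 fell and 5 rose, with a median of 0.19, and 16.1% of the genes without a site fell. Genes with more sites also had longer untranslated regions, with medians of 883 bases for no site and 2061 bases for 1 site.

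Genes of the cell cycle fell in a narrow range. Of 39 genes, 30 fell (76.9%) and 1 rose (2.56%), against 18.4% and 24.1% of all genes. Their median log2 fold change was -0.78, and their summed level went from 6370 to 7050 TPM at E10.5 to 3850 to 4130 TPM at E12.5. *Mki67*, which encodes the proliferation antigen Ki-67, was at 268, 280.1, 305 and 304 TPM at E10.5 and 194, 168, 197 and 208 TPM at E12.5 (log2 fold change -0.66 ± 0.09 (SE), adjusted p = 1.81e-05). *Cdk1*, the kinase that starts mitosis, was at 122, 124, 96.2 and 114 TPM at E10.5 and 76.004, 74.4, 71.5 and 73.8 TPM at E12.5 (log2 fold change -0.70 ± 0.10 (SE), adjusted p = 3.77e-05). *Ccnb1*, cyclin B1, was at 262, 266, 217 and 256 TPM at E10.5 and 101, 90.3, 102 and 103 TPM at E12.5 (log2 fold change -1.41 ± 0.10 (SE), adjusted p = 3.85e-08). *Rrm2*, which makes nucleotides for replication, was at 480.3, 530.0, 514 and 445 TPM at E10.5 and 155, 149, 156 and 159 TPM at E12.5 (log2 fold change -1.74 ± 0.08 (SE), adjusted p = 9.28e-10). The stages were apart in each of these 4 genes. The gene that rose was *Ccnd3*, cyclin D3, from 56.4 to 129 TPM, which is known to rise as muscle cells leave the cycle. *Mki67* and *Cdk1* were not called when tested against a fold change of 1.5. Without single libraries 26 to 31 of the 39 genes fell.

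The promoters of this list carried the 2 motifs known from genes of mitosis more often than promoters at large. CCAAT was found before 20 of the 30 genes that fell (66.7%) and before 36.1% of all protein-coding genes, and TTTGAA, the core of the cell cycle homology region, before 8 (26.7% against 14.2%). CCAAT was as frequent before the 22 neural tube genes that fell (14, which is 63.6%). The promoters of *Cdk1*, at chr10:69188769-69189018, and of *Ccnb2*, cyclin B2, at chr9:70328830-70329079, both on the minus strand of GRCm39, were chosen after the matches were seen and hold both motifs. Capitals mark CCAAT, or ATTGG where it lies on the other strand, and TTTGAA.
Cdk1: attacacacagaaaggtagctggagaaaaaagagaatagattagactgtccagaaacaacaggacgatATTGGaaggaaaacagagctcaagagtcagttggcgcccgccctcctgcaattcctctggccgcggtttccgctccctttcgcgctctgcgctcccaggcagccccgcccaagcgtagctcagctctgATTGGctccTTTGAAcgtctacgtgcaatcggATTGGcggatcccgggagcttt
Ccnb2: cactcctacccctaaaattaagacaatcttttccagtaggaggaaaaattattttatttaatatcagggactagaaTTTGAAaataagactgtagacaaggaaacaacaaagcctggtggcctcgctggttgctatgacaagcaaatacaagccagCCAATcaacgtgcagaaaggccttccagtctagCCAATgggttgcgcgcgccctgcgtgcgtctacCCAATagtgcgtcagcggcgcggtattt

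In both promoters 3 CCAAT motifs were found, the nearest ending 18 bases before the start in *Cdk1* and 24 bases before it in *Ccnb2*. TTTGAA ended 40 bases before the start in *Cdk1*. In *Ccnb2* it ended 169 bases before the start, farther out than all 3 CCAAT motifs. *Ccnb2* fell from a mean of 226 to 138 TPM.

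Inhibitors of the cell cycle moved less evenly, with 5 rises and 1 fall among 13 genes (38.5% and 7.69%, against 24.1% and 18.4% of all genes). *Cdkn1c*, which encodes p57 and is expressed from the maternal allele, was at 352, 402, 576 and 436 TPM at E10.5 and 2609, 2902, 2276 and 2128 TPM at E12.5 (log2 fold change 2.43 ± 0.14 (SE), adjusted p = 4.29e-09). *Cdkn1a*, which encodes p21, was at 10.97, 13.3, 23.97 and 15.498 TPM at E10.5 and 73.7, 88.6, 75.4 and 63.3 TPM at E12.5 (log2 fold change 2.19 ± 0.17 (SE), adjusted p = 1.23e-07). *Cdkn1b* gave no call, at -0.25 on the log2 scale. *Cdkn1c* is also on the list of imprinted growth genes, of which 14 of 19 rose and 1, *Nnat*, fell. *H19*, a non-coding RNA made from the maternal allele, was at 2244, 2549.7, 3074 and 2804 TPM at E10.5 and 11356, 12514, 9971 and 10038 TPM at E12.5 (log2 fold change 1.98 ± 0.12 (SE), adjusted p = 9.96e-09) and had the largest gain of TPM of all genes. *Igf2*, its growth factor neighbour made from the paternal allele, was at 44.8, 57.5, 99.3 and 59.8 TPM at E10.5 and 333, 401, 494 and 459.5 TPM at E12.5 (log2 fold change 2.64 ± 0.19 (SE), adjusted p = 5.08e-08). *Phlda2* rose from 0.414 to 10.6 TPM, and *Dlk1* and *Plagl1* from 205 to 822 TPM and from 107 to 504 TPM.

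The signalling pathways were described by role. In the Hedgehog pathway the ligand SHH comes from the notochord and floor plate and patterns the somite. *Shh* was at 19.6, 20.4, 31.2 and 19.3 TPM at E10.5 and 2.98, 2.89, 0.696 and 0.863 TPM at E12.5 (log2 fold change -3.65 ± 0.34 (SE), adjusted p = 6.00e-07). *Ihh*, the ligand of growing cartilage, rose from 0.408 to 7.26 TPM. *Ptch1*, receptor and target of the pathway, was at 40.05, 43.5, 45.02 and 40.5 TPM at E10.5 and 30.7, 34.4, 35.2 and 35.4 TPM at E12.5. Its log2 fold change of -0.38 stayed under the fold limit, and *Gli1*, the other target, was at 0.56 without a call. In all, 5 of 16 genes rose (31.2%) and 2 fell, against 24.1% and 18.4% of all genes. The co-receptors *Boc*, *Cdon* and *Gas1* were 3 of the 5. Of 12 notochord genes tested 5 fell and 3 rose, with a median log2 fold change of -0.15 and a summed level of 250 to 386 TPM at E10.5 and 314 to 353 TPM at E12.5. *T* and *Foxa2* were among those that fell, from 5.03 to 1.53 TPM and from 8.88 to 1.39 TPM, and *Foxa2*, like *Shh*, is also made by the floor plate of the neural tube.

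In the Wnt pathway 17 of 32 genes rose (53.1%) and 5 fell (15.6%), against 24.1% and 18.4% of all genes. Wnt ligands from the dorsal neural tube and the surface ectoderm act on the dermomyotome. The ligand *Wnt1*, made by the dorsal neural tube, fell from 17.1 to 0.717 TPM. *Axin2*, a general target, was at 37.2, 46.1, 69.1 and 46.3 TPM at E10.5 and 32.2, 25.01, 33.8 and 35.7 TPM at E12.5 (log2 fold change -0.70 ± 0.14 (SE), adjusted p = 6.98e-04), and this fall was lost without replicate 3 of E10.5, the highest of its group, at -0.55. Among the genes that rose were the secreted inhibitors *Dkk2*, from 9.48 to 135 TPM, *Sfrp2*, from 112 to 558 TPM, and *Wif1*, from 4.36 to 38.96 TPM. Without that replicate 2 and not 5 Wnt pathway genes fell.

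BMP and TGF-beta genes rose in 22 of 29 cases (75.9%, against 24.1% of all genes) and none fell. Their median log2 fold change was 1.61. The ligands *Gdf5*, which marks future joints, *Inhba* and *Tgfb3* rose from 0.175 to 12.54 TPM, from 0.885 to 25.7 TPM and from 10.4 to 116 TPM. The antagonist *Nog*, which holds BMP back in cartilage, was at 5.56, 7.71, 9.71 and 5.84 TPM at E10.5 and 41.2, 45.4, 38.2 and 35.1 TPM at E12.5 (log2 fold change 2.41 ± 0.16 (SE), adjusted p = 2.08e-08). The direct targets *Id1*, *Id2* and *Id3* gave no call, at 0.03, -0.46 and -0.19 on the log2 scale. FGF genes rose in 20 of 30 cases and fell in 2 (66.7% and 6.67%, against 24.1% and 18.4% of all genes). *Fgf8* was at 1.58, 2.33, 2.02 and 1.86 TPM at E10.5 and 2.45, 3.64, 2.62 and 1.11 TPM at E12.5, without a call (log2 fold change 0.27 ± 0.33 (SE), adjusted p = 0.496). *Fgf7* rose from 1.26 to 17.7 TPM, and the feedback inhibitors *Spry1*, *Spry2* and *Spry4* rose from 14.6 to 54.8 TPM, from 32.96 to 100.3 TPM and from 4.62 to 38.05 TPM. *Fgf15*, which the neural tube transcribes, fell from 8.13 to 0.716 TPM.

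In the retinoic acid pathway 7 of 19 genes rose (36.8%) and 6 fell (31.6%), against 24.1% and 18.4% of all genes. *Aldh1a2*, which makes retinoic acid in somites, was at 168, 222, 249 and 173 TPM at E10.5 and 91.7, 64.6, 97.01 and 72.6 TPM at E12.5 (log2 fold change -1.38 ± 0.14 (SE), adjusted p = 1.05e-06). The enzyme *Aldh1a3* moved the other way, from 0.295 to 24.2 TPM, as did the receptors *Rarg*, from 17.7 to 116 TPM, and *Rxrg*, from 5.36 to 33.7 TPM. The binding proteins *Crabp1* and *Crabp2* fell, from 1299 to 692 TPM and from 914 to 271 TPM.

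Markers of other cell types moved as well, and their part in the changes above was not tested. All 19 macrophage genes tested rose. *Csf1r*, the receptor on which macrophages depend, was at 3.14, 1.65, 3.63 and 2.76 TPM at E10.5 and 23.3, 26.97, 33.1 and 29.7 TPM at E12.5 (log2 fold change 3.28 ± 0.19 (SE), adjusted p = 5.31e-09). *C1qa*, a complement component that macrophages make, was at 1.81, 1.21, 4.06 and 0.994 TPM at E10.5 and 37.8, 50.6, 43.95 and 45.03 TPM at E12.5 (log2 fold change 4.39 ± 0.28 (SE), adjusted p = 1.49e-08). Surface ectoderm markers rose in 16 of 20 cases, with *Krt14*, the keratin of the basal epidermis, at 2.29, 3.07, 4.72 and 3.86 TPM at E10.5 and 106, 114, 127 and 118 TPM at E12.5 (log2 fold change 5.01 ± 0.15 (SE), adjusted p = 1.92e-11). Their summed level was 114 to 214 TPM at E10.5 and 775 to 867 TPM at E12.5. Endothelial genes rose in 13 of 22 cases (59.1%, against 24.1% of all genes) and none fell. *Cdh5* and *Pecam1*, the junction proteins of vessels, went from 51.3 to 142 TPM and from 26.6 to 56.9 TPM. *Lyve1*, of lymphatic vessels and of some macrophages, rose from 2.29 to 31.8 TPM. Smooth muscle and pericyte genes rose in 10 of 12 cases.

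Neural crest and glia genes rose in 12 and fell in 2 of 21 cases (57.1% and 9.52%, against 24.1% and 18.4% of all genes). *Sox10*, which marks migrating crest and glia, gave no call, at 39.6 to 56.3 TPM, whereas *S100b* of the same list rose from 0.205 to 27.3 TPM. From which cells the *S100b* reads came was not tested. Genes of sensory and autonomic neurons fell in 17 and rose in 8 of 32 cases. The proneural gene *Neurog2* was at 49.7, 71.8, 77.04 and 53.4 TPM at E10.5 and 0.297, 0.119, 0.254 and 0.245 TPM at E12.5 (log2 fold change -8.12 ± 0.23 (SE), adjusted p = 1.31e-11). *Isl1* fell from 84.2 to 24.8 TPM. The spinal cord also transcribes both genes. The genes that rose included *Runx3*, a factor of proprioceptive neurons and of cartilage, from 0.0966 to 10.9 TPM.

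Genes of red blood cells moved in both directions. Of 19 erythroid genes 13 fell (68.4%) and 4 rose (21.1%), against 18.4% and 24.1% of all genes. The 4 were the adult globins *Hba-a1*, *Hba-a2*, *Hbb-bs* and *Hbb-bt*, each of which has a near copy with which reads may be shared. The embryonic globin *Hbb-bh1* was at 9539, 5764, 4344 and 9323 TPM at E10.5 and 222, 226, 413 and 391 TPM at E12.5 (log2 fold change -4.61 ± 0.31 (SE), adjusted p = 2.54e-08), the largest loss of TPM of all genes. The adult *Hbb-bs* was at 50.9, 25.2, 27.8 and 50.2 TPM at E10.5 and 1351, 1827, 1585 and 1594 TPM at E12.5 (log2 fold change 5.30 ± 0.23 (SE), adjusted p = 3.66e-10). The embryonic *Hba-x* fell from 4135 to 1028 TPM, and *Hbb-y* gave no call, at 11842 to 9865 TPM. The summed erythroid level was uneven at E10.5, with 32600 and 32500 TPM in replicates 1 and 4 and 19000 and 16100 TPM in replicates 2 and 3, and was 13000 to 18700 TPM at E12.5.

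**Figure D4:**
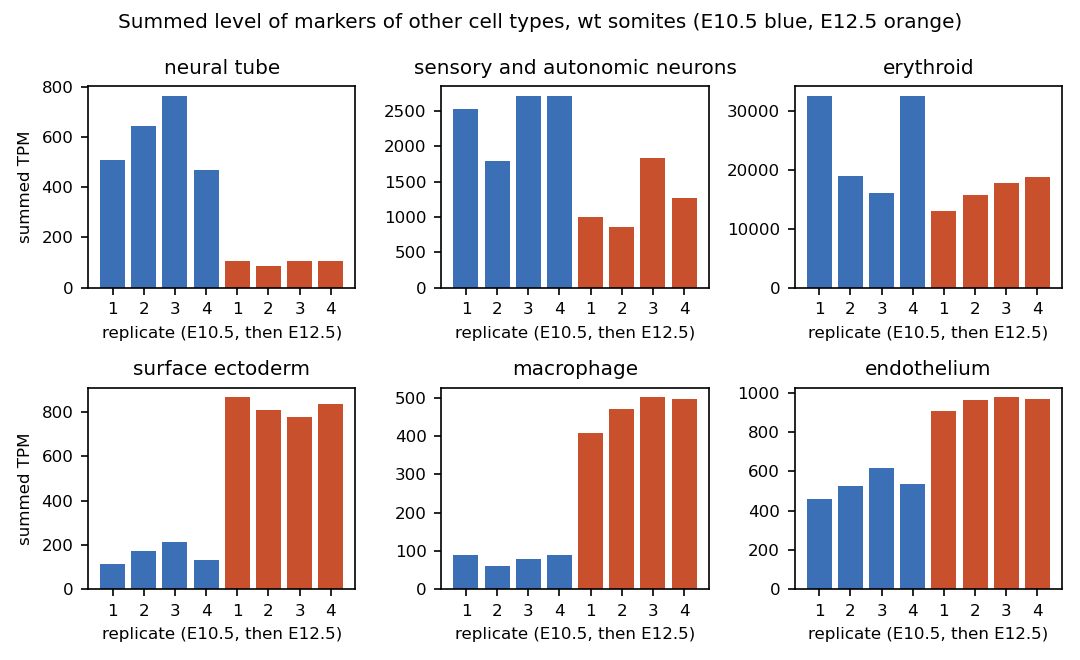
Summed TPM of 6 lists of markers of other cell types in each of the 8 wt libraries. Each bar is 1 library, blue for E10.5 and orange for E12.5, and bars start at 0. Neural tube markers sum to 470 to 765 TPM at E10.5 and 85.3 to 107 TPM at E12.5, surface ectoderm and macrophage markers go the other way, and erythroid markers are highest in E10.5 replicates 1 and 4.

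Genes of the limb bud and lateral plate rose in 10 and fell in 2 of 16 cases, although the forelimbs had been taken off. *Tbx5*, the forelimb factor, rose from 2.50 to 32.4 TPM, and *Tbx15* and *Pitx1* from 3.07 to 125 TPM and from 0.399 to 22.9 TPM. Of 22 genes of foregut, lung, heart and liver, 8 were under 1 TPM in both stages. Of the 14 tested, 6 rose (42.9%) and 4 fell (28.6%), against 24.1% and 18.4% of all genes. Among those that rose, *Nkx2-1* and *Nkx2-5* reached only 1.41 and 2.74 TPM.

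Of the largest rises among genes at 10 TPM or more, most belonged to the skeletal lists above. The others were *Cpa3*, *Oc90*, *Abca8a* and *Panx3*, besides *Aspn*. *Cpa3*, a protease of mast cells, had no count at E10.5 and a mean of 11.7 ± 3.16 TPM at E12.5 (SD, n = 4), at least 41.0-fold higher against the same floor. *Panx3*, a channel protein of cartilage and bone, had 4 counts at E10.5 and a mean of 22.9 TPM at E12.5. *Abca8a*, a lipid transporter, had 3 counts at E10.5 and a ratio of counts of 849 (95% counting interval 290 to 4120). *Oc90*, which encodes the main protein of the otoconia of the inner ear, was at 0, 0.0657, 0.142 and 0 TPM at E10.5 and 61.5, 61.6, 0.296 and 89.9 TPM at E12.5. It was thus on in 3 E12.5 libraries and nearly off in replicate 3.

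At the same minimum level the largest falls were mostly neural. *Neurog2*, *Sox1*, *Olig2*, *Lhx3*, *Lhx4*, *Neurod4*, *Pou3f2* and *Glra1*, the glycine receptor of spinal neurons, were 8 of the 12, with log2 fold changes of -7.18 to -8.12. The others were *Lin28a*, *Sp8*, at -7.80, *Nr1h5*, and the lncRNA ENSMUSG00000120522, which went from 159 ± 24.2 to 0.463 ± 0.183 TPM (SD, n = 4). *Nr1h5*, a nuclear receptor, was at 0.222, 0.399, 63.6 and 0.104 TPM at E10.5 and 0.0467, 0.0937, 0.0998 and 0 TPM at E12.5. Its mean at E10.5 came from replicate 3 alone, and without that library the log2 fold change was -2.04. Besides the globins, the largest losses of TPM were those of *Ptma*, which fell from 5807 ± 151 to 3704 ± 205 TPM (SD, n = 4), and of the translation factor *Eef1a1*, which gave no call. *Lgals1*, galectin 1, was among the 5 largest gains, from 381 ± 25.1 to 2427 ± 122 TPM (SD, n = 4).

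The same contrast in *Hoxa5*-/- somites rests on other libraries and gave the same sign for 4620 of the 4646 genes that rose in wt and for 3390 of the 3483 that fell. In the mutants 4345 of 19602 genes rose and 2870 fell, which together were 36.8%. Of the genes that rose in wt, 4646 were tested in the mutants and 3853 rose there as well, which was 82.9% of the wt list and 90.8% of the mutant list. None of them fell. Of the genes that fell in wt, 3483 were tested and 2292 fell in the mutants, which was 65.8% of the wt list and 82.3% of the mutant list, and 1, *Gm44423*, rose. Across the 18957 genes tested in both, called or not, 16386 had the same sign. Pearson's r of their log2 fold changes was 0.923, and genes are not independent replicates.

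By list, all 49 sarcomere genes rose in both genotypes. The log2 fold changes in mutants were 4.68 for *Myod1*, 2.57 for *Col2a1*, 3.02 for *Scx*, -4.89 for *Pax3* and -7.59 for *Lin28a*, against 4.98, 2.91, 2.95, -4.64 and -7.50 in wt. *Sox9* and *Cdk1* had no call in the mutants, at 0.42 and -0.40. The test of the difference itself, as the interaction of stage and genotype, passed for 3 of 20388 genes (0.0147%), *Tmem254*, *Gm6969* and *Rtraf-ps*, and 2912 genes had an unadjusted p under 0.05. Without replicate 3 of E10.5 wt it passed for 516 genes, so that the count rests on that library. The neural tube markers fell in the mutants too, from summed levels of 570 to 840 TPM to 79.0 to 97.2 TPM.

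**Figure D5:**
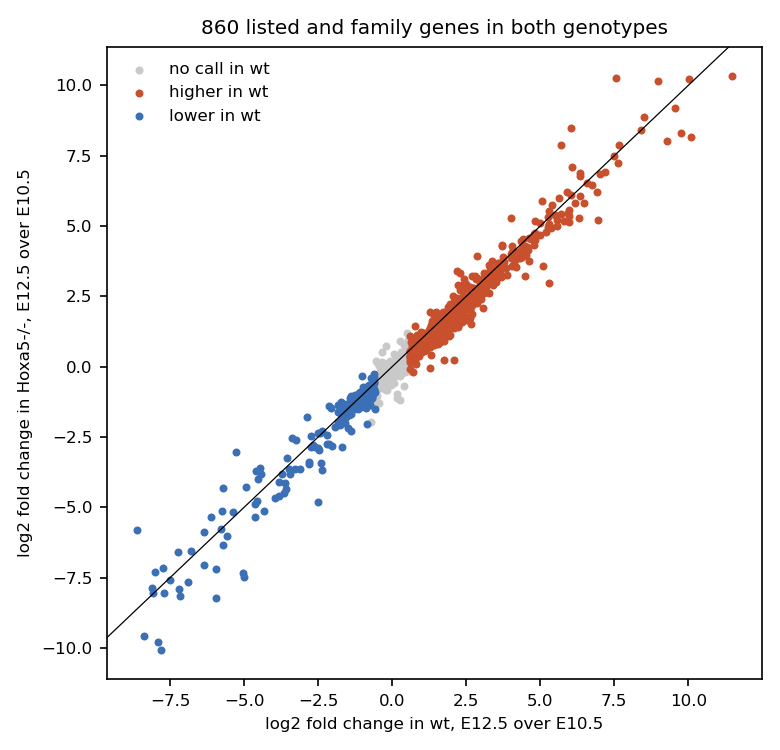
Log2 fold change of E12.5 over E10.5 in wt (x axis) and in *Hoxa5*-/- somites (y axis) for 860 genes of the lists and families. Each point is 1 gene, orange where it rose in wt, blue where it fell and grey without a call, and the line marks equal change. The sign was the same for 807 of the 860 genes. Among all genes tested in both genotypes it was the same for 16386 of 18957.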

How the data were processed

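Raw gene counts and TPM values were used as the authors deposited them. According to the methods and the submitters' processing notes, reads were trimmed with Trim Galore (0.6.5), aligned to GRCm39 with STAR (2.7.9a) and counted per gene with featureCounts (2.0.3) from polyA-selected libraries; strandedness is not given in the sources used here. The authors deposited counts without normalization and TPM for the same genes. Of the gene names, 2573 had lost a separator, which was restored.

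From the counts, the stages were compared with edgeR 4.0.16 in R 4.3.3 (quasi-likelihood test, TMM, Benjamini-Hochberg adjustment over all genes tested, *Hox* genes included). A gene with a mean of at least 1 TPM in either stage was tested, and was called when its adjusted p lay under 0.05 and it differed at least 1.5-fold. A gene on a list was said to rise or fall by this call. DESeq2 1.42.0, a covariate for embryo sex (*Xist*), other scalings and filters, the test against the fold limit and the removal of each library were alternatives. The script was tested on simulated data. Depth was 23364458 to 28234711 counts per wt library, and intervals and floors (95%, 3 counts) cover counting error only.

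The genes described and the 31 lists were chosen with earlier results of these data known. Named genes were the 12 largest rises and falls at 10 TPM or more without overlap (genes named Gm or Rik aside), the 5 largest gains and losses of TPM, anchors of each list and its 3 largest changes at 5 TPM or more; other list and family members named in the text, the printed promoters and the let-7 sites were chosen after their values were seen. Promoters (250 bases), untranslated regions and coordinates came from GRCm39 with GENCODE M32 (Ensembl 109), and mature let-7 sequences from RefSeq. Motifs were matched on both strands.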

Additional observations from a re-analysis of the deposited data

Results flagged for a closer look

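Of 133 groups of 4 libraries checked for 67 genes, 5 held a library that lay far from the other 3 by Dixon's criterion; chance gives about 1 in 20. *Matn1* was at 301 TPM in replicate 2 of E12.5 and at 194 to 207 TPM in the others. *Col10a1* was at 19.2 TPM in the same library and at 0.588 to 2.88 TPM in the others. Replicate 3 of E10.5 held the other 3 such values. In it *Pax7* was at 25.2 TPM against 15.8 to 16.7 TPM, *Shh* at 31.2 TPM against 19.3 to 20.4 TPM, and *Nr1h5* at 63.6 TPM against 0.104 to 0.399 TPM.

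The stage effect differed between genotypes for 3 genes by the test of the interaction with edgeR. For *Tmem254* the log2 fold change was 1.20 in wt and -0.19 in mutants, a difference of -1.38 ± 0.12 (SE, adjusted p = 2.72e-05). For *Gm6969* it was -0.19 in wt and 1.06 in mutants, a difference of 1.25 ± 0.16 (SE, adjusted p = 0.00267). For *Rtraf-ps* it was -0.41 in wt and 0.85 in mutants, a difference of 1.26 ± 0.19 (SE, adjusted p = 0.0334). The last is a pseudogene, whose reads may come from its parent gene.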

How the results depend on the processing

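The wt counts of 4763 rises and 3629 falls kept within 1.5 times of their value under DESeq2 (4597 and 3553), DESeq2 size factors (4688 and 3743), library totals (4563 and 3931), 3 other filters on low values, a fit of all 15 libraries (4806 and 3704), an *Xist* covariate (4718 and 3343) and the removal of each library (4606 to 4882 and 3333 to 3837). Exceptions were the test against the fold limit, with 2182 falls, and no fold limit, with 6020. The stages came from different embryos, and the replicate numbers were not taken as pairs in the main test. Deviations from the stage means correlated at -0.0378 to 0.11 for same-numbered libraries and at -0.113 to 0.0632 for the others. As these deviations sum to 0 within a stage, they cannot decide on a pairing. With the replicate block there were 4776 rises and 3569 falls. The interaction count of 3 (2 higher and 1 lower in mutants) was 15 with DESeq2 (6 higher, 9 lower) and 2 with the replicate block (1 higher). Without single libraries it was 2 to 516, with 1 to 147 higher and 1 to 369 lower. The 516 came without replicate 3 of E10.5 wt; it was 16 without replicate 3 and 7 without replicate 1 of the E10.5 mutants. The cause was not tested. *Pax7*, which gave no call, moved from -0.14 to between -0.1944 and 2.733e-05 without single libraries, the latter without replicate 3 of E10.5 wt. *Sox9*, *Cdk1*, *Mki67* and *Axin2* lost their call against the fold limit, *Axin2* without that library, and *Nr1h5* with DESeq2 and with the *Xist* covariate; *Myf5* and *Ptch1* were called with no fold limit.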

Other observations

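A few genes were on in some libraries of a stage and nearly off in the others, and the cause was not tested. With a gap of at least 10-fold and at least 5 TPM on the higher side there were 45 such genes at E10.5 and 40 at E12.5, many of them small RNAs and pseudogenes. *Scgb1a1*, the secretoglobin of airway club cells, was at 34.9 TPM and *Sftpc*, a surfactant protein of the lung, at 7.83 TPM in replicate 2 of E12.5 wt. In the other 14 somite libraries *Scgb1a1* was at 0 to 0.847 TPM and *Sftpc* at 0 to 0.851 TPM. *Pth*, parathyroid hormone, was at 8.20 and 6.17 TPM in replicates 1 and 2 of E12.5 wt, at 8.43 and 17.1 TPM in replicates 1 and 2 of the E12.5 mutants, and at 0 in the other 4 E12.5 libraries. *Oc90* was at 61.5, 61.6 and 89.9 TPM in 3 of the 4 E12.5 wt libraries, and at no more than 0.361 TPM in the other 12 somite libraries.

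*Nr1h5* was at 57.2 and 61.4 TPM in replicates 1 and 2 of the E10.5 mutants as well as at 63.6 TPM in replicate 3 of E10.5 wt, and at 0.0963 to 0.399 TPM in the other 4 E10.5 libraries. The pseudogene *Rpsa-ps10* was at 905 TPM in that wt library and at 10.03 to 22.02 TPM in the other 14. The pseudogene *Gm28438* was at 5.52 TPM in it and at 3.56 to 5.84 TPM in the E10.5 mutants, whereas the other E10.5 wt libraries were at 65.5 to 98.4 TPM.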
